A study of Mus musculus with 18 samples.

Results

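Toll-like receptors sense molecules of microbes, and CD14 hands some of those molecules to them. The genes described here are *Tlr1*, *Tlr2*, *Tlr4*, *Tlr6*, *Tlr7*, *Tlr8*, *Tlr9*, *Tlr13*, the co-receptor gene *Cd14* and the adaptor gene *Myd88*, taken as every gene of the expression table that carries these symbols. All 10 were found among the 22708 genes of the table.

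Bulk RNA sequencing was run on eosinophils sorted from the small intestine of mice, to ask what the aryl hydrocarbon receptor (AHR) and its repressor (AHRR) do in these cells. The 18 samples form 3 groups of 6, wild type (WT), Ahr-KO and Ahrr-KO, each with 3 females (F1 to F3) and 3 males (M1 to M3). Live cells that carried CD11b and SiglecF, lacked MHC-II and had high side scatter were sorted after enrichment on anti-CD11b beads. Libraries were made by whole-transcriptome amplification and read from a single end. The mice are labelled strain C57/BL6, were 6 to 14 weeks old and were kept free of specific pathogens. WT and Ahr-/- mice were not littermates and did not share cages, so genotype and housing cannot be told apart, and how the Ahrr-KO mice were bred and housed is not given in the sources used here. Total counts ran from 3842977 to 8149200 in WT (median 6022409.5), from 6581818 to 10284124 in Ahr-KO (median 9647589.5) and from 8788867 to 12046933 in Ahrr-KO (median 10371556), so WT had the lowest depth. A count of 0 leaves room for up to 3 counts in that sample, and such limits cover counting error only. The study counts 6 mice for WT and 6 for Ahr-/- in this sequencing, the same as the number of samples, while the number of Ahrr-KO mice is not given in the sources used here. The p-values measure the spread between these samples, which holds differences between mice and technical spread together.

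Some samples stood apart before any group was compared. WT F3 had a count in 20244 genes and Ahr-KO F3 in 19694, against 15146 to 17236 in the other 16 samples. *Camp*, a granule gene of developing neutrophils, had 188 counts in Ahrr-KO F2, 107 in Ahr-KO F3 and 6 in WT F3, and at most 2 in the other 15 samples, 13 of which had 0. These 3 samples, all female, are left out together beside the results below where that changes a call.

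As background, Toll-like receptors divide by place. TLR1, TLR2, TLR4 and TLR6 sit on the cell surface and bind lipids and lipoproteins of microbes, while TLR7, TLR8, TLR9 and TLR13 sit in endosomes and bind nucleic acids. All of these receptors can pass their signal through the adaptor MyD88 to kinases of the IRAK family and on to NF-kB, and eosinophils of the gut lie close to the bacteria that carry such ligands.

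The genotype labels were checked first against the targeted genes. Levels are given on the deposited log2 scale (variance-stabilized counts), on which 5.02 is a count of 0. Close to 5.02 this scale is compressed, so a difference there is smaller than the log2 of the ratio of normalized counts. *Ahr*, the receptor gene, measured 13.52, 14.26, 13.78, 14.40, 13.74 and 13.40 in WT F1 to M3, and 14.56, 14.63, 14.22, 14.55, 14.67 and 14.15 in the samples labelled Ahr-KO. In the samples labelled Ahrr-KO, *Ahr* measured 14.42, 14.17, 13.24, 13.46, 13.56 and 13.03. The *Ahr* transcript was thus not lower in the samples labelled Ahr-KO. *Ahrr* measured 9.79, 10.04, 10.23, 10.09, 10.39 and 10.14 in WT, and 10.93, 10.63, 10.11, 9.95, 10.65 and 10.10 in the samples labelled Ahrr-KO. It was not lower there either. In the samples labelled Ahr-KO, *Ahrr* measured 5.02, 5.26, 5.79, 5.02, 5.37 and 5.24, at or near the floor in every sample. Where either deletion lies is not given in the sources used here, so counts over a whole gene check nothing about it, and directions below are stated for samples as labelled. Of the 5 genes of the AHR list (*Ahr*, *Ahrr*, *Cyp1b1*, *Tiparp* and *Nqo1*), 4 fell in Ahr-KO against WT in a test across all genes (limma, adjusted p below 0.05). *Ahrr* fell by 4.83 on the log2 scale (adjusted p = 4.95e-12), *Cyp1b1* by 4.07 (adjusted p = 1.93e-08), *Tiparp* by 2.60 (adjusted p = 1.56e-07) and *Nqo1* by 1.82 (adjusted p = 1.27e-07). These are differences on the compressed scale: normalized counts of *Ahrr* ran from 819 to 1281 in WT and from 0 to 9.43 in Ahr-KO. In Ahrr-KO against WT 0 of the 5 were called by limma, 0 at an unadjusted p under 0.05 and 0 by voom, and the difference of *Ahrr* was 0.28. The AHR motif searched below can be seen in the promoter of *Ahrr*, a known AHR target, shown because it is the gene of this list that differed most. The 250 bases before its start, chr13:74292332-74292581 on the minus strand of GRCm38.p6 (RefSeq), hold the letters GCGTG 3 times, in capitals.
Ahrr: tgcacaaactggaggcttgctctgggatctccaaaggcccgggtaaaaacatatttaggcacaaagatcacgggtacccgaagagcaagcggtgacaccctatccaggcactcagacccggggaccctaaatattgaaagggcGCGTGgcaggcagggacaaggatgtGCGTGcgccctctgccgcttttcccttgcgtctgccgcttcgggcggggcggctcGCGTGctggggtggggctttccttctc
The search took GCGTG, the core of the AHR response element, and its reverse complement CACGC. Of 32851 promoters of this length, 28.2% hold it. A match describes letters and does not show binding.

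The sorted cells were checked against markers of eosinophils. *Ccr3*, the eotaxin receptor gene, had a mean of 13.59 ± 0.26 (SD, n = 6) in WT, *Siglecf* 11.03 ± 0.20 and *Alox15*, the most abundant of the 12 listed genes per length, 14.02 ± 0.23. Of 6 genes of granule proteins on the list, 5 were near the floor. *Epx* had a mean of 5.83 in WT, *Prg3* 5.25, *Ear1* 5.54, *Ear2* 5.49 and *Ear6* 5.08, and *Ear6* had 0 counts in all Ahrr-KO samples. *Prg2*, the gene of the major basic protein of the granules, was not near the floor, with a mean of 7.03 ± 0.34 (SD, n = 6) in WT, 9.33 ± 0.60 in Ahr-KO and 7.26 ± 0.49 in Ahrr-KO. As normalized counts per kilobase of exon in WT, *Prg2* had a mean of 91.7, against 3800 for *Ccr3* and 730 for *Siglecf*. Of the 7 marker genes tested in Ahr-KO against WT, *Prg2* (difference 2.30, adjusted p = 3.47e-07) and *Alox15* (0.58, adjusted p = 0.023) rose and *Clec4a4* fell by 4.13 (adjusted p = 5.18e-12). *Alox15* was not called without the 3 samples that stood apart. With all samples of Ahr-KO and WT, 6 of the 7 differences lay above 0 (median 0.35 against -0.00 over all genes). In Ahrr-KO against WT 0 of 7 were called (limma, 1 at an unadjusted p under 0.05, 0 by voom), and 6 of 7 lay below 0 (median -0.29 against 0.01).

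Levels were compared between genes as normalized counts per kilobase of exon, in WT. *Tlr13*, an endosomal receptor for bacterial ribosomal RNA, was by far the most abundant member with 536 ± 72.6 (SD, n = 6) per kilobase, rank 496 of 22222 genes. *Myd88* followed with 114 ± 16.6 and *Tlr6*, a partner of TLR2, with 70.6 ± 17.5. *Cd14* had 26.6 ± 10.2 and *Tlr1*, another partner of TLR2, 15.3 ± 6.3. The remaining members were scarce in these cells. *Tlr2* had 5.75 ± 3.94 per kilobase, *Tlr7* 5.09 ± 3.82, *Tlr4* 4.68 ± 3.29, *Tlr9* 3.5 ± 2.26 and *Tlr8* 2.26 ± 2.42. Among the 4 other Toll-like receptor genes of the mouse, *Tlr3* had 21.9 ± 6.69, *Tlr12* 2.34, *Tlr5* 1.46 and *Tlr11* 1.08.

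The order of levels was clear at the top and not at the bottom. The WT values of *Tlr13* (457 to 653 per kilobase) lay wholly above those of *Myd88* (88.2 to 136), and those of *Tlr6* (54.8 to 101) above those of *Cd14* (9.65 to 39.7). All other neighbours in the order overlapped in WT. *Tlr13* exceeded *Myd88* in 18 of 18 samples and *Myd88* exceeded *Tlr6* in 18, while *Tlr6* exceeded *Cd14* in 9 of 18, so the order of *Tlr6* and *Cd14* in WT did not carry over to every sample. The plot of levels per kilobase shows the gap between *Tlr13* and the rest. *Tlr1* and *Tlr6* are neighbours on chromosome 5 (GRCm38, 64924679 to 64933563 and 64952031 to 64960097) and share sequence. Of the 75-base windows of *Tlr1*, 10.6% also occur in another gene, and of those of *Tlr6* 9.25%, all of them in *Tlr1*, while the other 8 members share 0. Exons of *Myd88* overlap *Acaa1a* on the other strand, and whether strand was used in counting is not given in the sources used here.

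**Figure D1:**
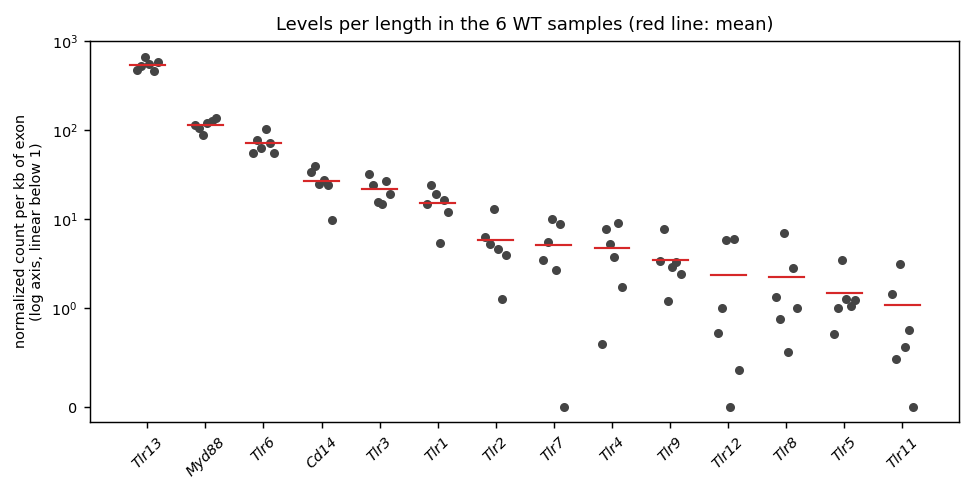
Normalized counts per kilobase of exon for 14 genes of the family in the 6 WT samples (points, log axis that is linear below 1) with the mean in red. *Tlr13* lies between 457 and 653, above all other genes shown.

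The promoters of the most abundant member and of a member that rose in samples labelled Ahrr-KO are printed to show the sequence before their starts, shortened to where no annotated exon lies. *Tlr13* is shown for chrX:106143025-106143203 (plus strand) and *Tlr2* for chr3:83841768-83841858 (minus strand), GRCm38.p6, RefSeq.
Tlr13: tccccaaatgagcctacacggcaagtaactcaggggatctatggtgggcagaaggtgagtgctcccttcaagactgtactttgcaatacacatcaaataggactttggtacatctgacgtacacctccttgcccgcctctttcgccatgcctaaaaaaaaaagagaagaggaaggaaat
Tlr2: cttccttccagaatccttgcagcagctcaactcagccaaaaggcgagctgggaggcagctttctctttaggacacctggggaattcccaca
Neither holds the core letters GCGTG or CACGC, so no capitals appear. Of the 10 members, 7 have an entry in the table used, and 0 of these 7 hold the letters in the 250 bases before a start, against 30.9% of 27025 genes. This says only that these letters are not in these windows.

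Ahrr-KO against WT asks what the label of a lost AHR repressor goes with. Few genes differed, and both *Cd14* and *Tlr2* were among them. *Cd14* ran from 6.04 to 6.97 (median 6.64, log2 scale) in WT and from 6.88 to 8.25 (median 7.81) in the samples labelled Ahrr-KO. In order F1 to M3, *Cd14* measured 7.90, 8.16, 8.25, 6.88, 7.29 and 7.72 in Ahrr-KO, and 5 of these 6 samples lay above all WT samples, M1 being the exception. Its mean normalized count was 46.1 ± 17.6 (SD, n = 6) in WT and 160 ± 70.8 in Ahrr-KO, a ratio of 3.47. *Cd14* rose by 1.09 on the log2 scale (SE 0.17, 95% interval 0.71 to 1.46, adjusted p = 0.0367, 6 of 6 samples above the WT mean). *Tlr2*, the surface receptor for bacterial lipoproteins, measured 6.10, 6.01, 6.54, 5.95, 5.51 and 5.88 in WT and 7.26, 7.00, 6.81, 6.48, 6.78 and 6.81 in the samples labelled Ahrr-KO. All but M1 of the latter lay above all WT samples. Counts behind these values were small, 3 to 19 in WT and 43 to 108 in Ahrr-KO. *Tlr2* rose by 0.85 (SE 0.15, 95% interval 0.54 to 1.17, adjusted p = 0.0464, 6 of 6 samples above the WT mean), with mean normalized counts of 17.3 ± 11.9 and 61.6 ± 19.7 (ratio 3.55). Fewer cells of a type and less RNA per cell cannot be told apart in bulk samples, here and below.

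Of the other members, *Tlr7*, *Tlr9* and *Tlr4* had higher values in most samples labelled Ahrr-KO without passing the test. *Tlr7*, a receptor for single-stranded RNA, had a median of 6.07 in WT and 6.67 in Ahrr-KO, and 5 of 6 Ahrr-KO samples lay above all WT samples (difference 0.62, adjusted p = 0.603). *Tlr9*, a receptor for bacterial DNA, differed by 0.49 (adjusted p = 0.617) and *Tlr4*, the receptor for lipopolysaccharide, by 0.43 (adjusted p = 0.671). Ratios of mean normalized counts were 2.23 for *Tlr7*, 2.63 for *Tlr9* and 1.74 for *Tlr4*. Differences near 0 or below it were those of *Tlr1* (0.06), *Myd88* (-0.02), *Tlr6* (-0.25) and *Tlr13* (-0.29). *Tlr8*, with a median of 5.53 in WT and 5.95 in Ahrr-KO, lay under the minimum mean (1 above the floor) and was not tested. In all, 2 of 9 tested members were called, both higher, against 9 of 11546 genes (0.0779%, and the same 0.0779% counting higher genes only). This split turned with females only, where 0 genes were called higher and 2 lower. With both sexes, the members' median difference was 0.43 against 0.01 over all tested genes. The 9 called genes, named here after their values were seen, were *S100a9* (difference 2.10), *S100a8* (2.06), *C3* (1.43), *St18* (1.41), *Hp* (1.21), *Cd14*, *Csf3r* (1.18), *Fam177a2* (0.63) and *Tlr2*, with *Tlr2* last by p. Both calls lay near the threshold: by voom 0 of 9 members were called (5 at an unadjusted p under 0.05), and 0 were called without the 3 samples that stood apart (*Cd14* 0.99, *Tlr2* 0.93), where 4 genes were called in all. Leaving out any 1 sample, *Cd14* kept its call without WT M1, Ahrr-KO F1 or Ahrr-KO M1 (adjusted p 0.0284, 0.0319 and 0.0116) and lost it without each of the other 9 (up to 0.154, without WT M3), and *Tlr2* kept it without WT F3 (0.0331) and lost it without each of the other 11 (up to 0.165, without WT M2). Over all alternatives the adjusted p ran from 0.00163 to 0.323 for *Cd14* and from 0.0155 to 1 for *Tlr2*, and no alternative turned either direction.

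**Figure D2:**
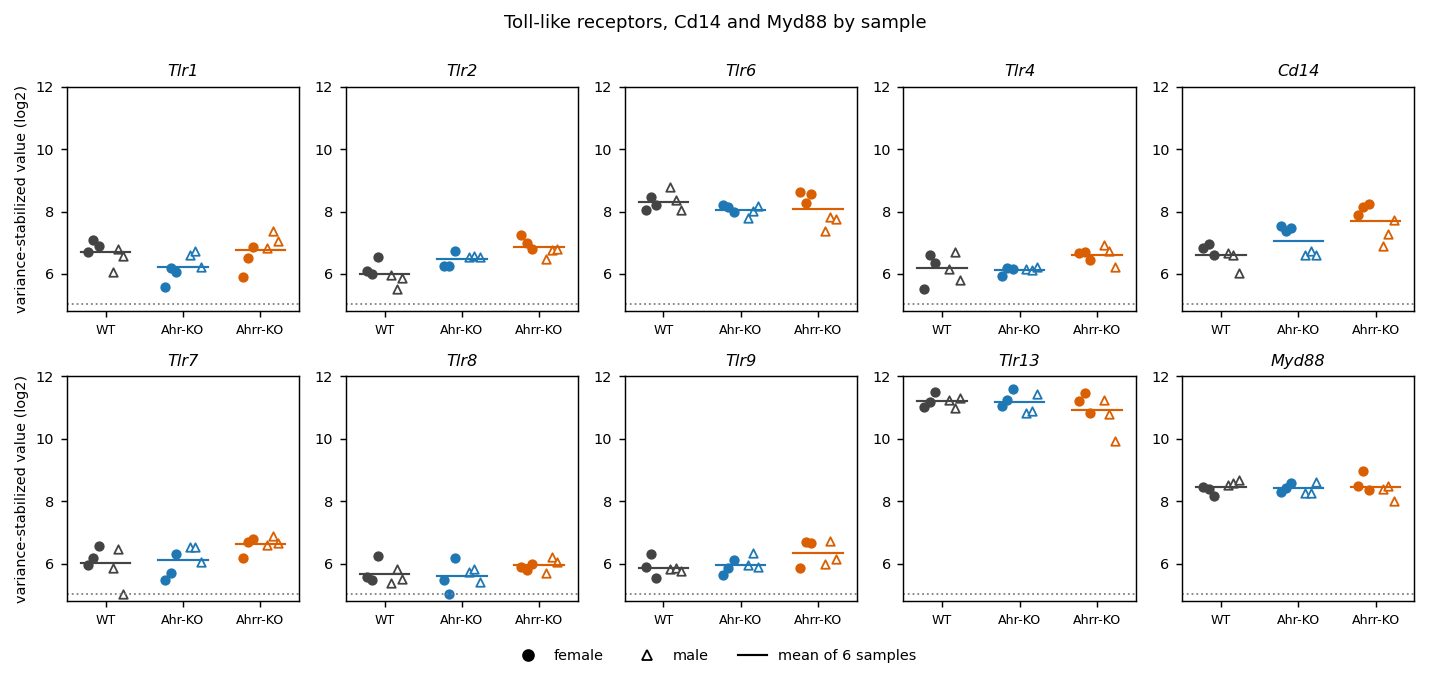
Deposited log2 values of the 10 members in every sample by group (filled circles female, open triangles male, line the group mean, dotted line the value 5.02 of a count of 0). *Cd14* reaches 8.25 and *Tlr2* 7.26 in samples labelled Ahrr-KO, while *Tlr13* stays between 9.93 and 11.61 in all groups.

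Ahr-KO against WT asks which genes move with the label of a lost receptor. Values of *Cd14* and *Tlr2* were also higher here, by less, and neither passed the test. *Tlr2* measured 6.25, 6.26, 6.74, 6.55, 6.56 and 6.55 in the samples labelled Ahr-KO, 4 of them above all WT samples and all 6 above the WT mean (difference 0.49, 95% interval 0.16 to 0.81, adjusted p = 0.0616). *Cd14* measured 7.53, 7.37, 7.46, 6.61, 6.72 and 6.59, so that the 3 females lay above all WT samples and the 3 males among them (difference 0.43, 95% interval 0.14 to 0.72, adjusted p = 0.065). *Tlr1* pointed the other way, with a median of 6.75 in WT and 6.20 in Ahr-KO (difference -0.46, adjusted p = 0.174), as did *Tlr6* (-0.26, adjusted p = 0.25). The differences of *Tlr7* (0.09), *Tlr4* (-0.05), *Myd88* (-0.06) and *Tlr13* (-0.03, 95% interval -0.32 to 0.26) were small beside their spread. Of 8 tested members (*Tlr8* and *Tlr9* lay under the minimum), limma called 0, against 1003 of 11346 genes (8.84%), or 586 genes without the 3 samples that stood apart. At an unadjusted p under 0.05 there were 3 of 8 (*Cd14*, *Tlr2* and *Tlr1*), against 23.3% of all tested genes, and voom called 0. Their median difference was -0.04 against -0.00 over all tested genes. *Tlr2* passed without the 3 samples that stood apart (0.54, adjusted p = 0.0459) and without WT F3 alone (0.59, 0.021), *Cd14* passed without WT M1 (0.51, 0.0301) or WT M2 (0.49, 0.0478), and *Tlr1* without WT M1 (-0.61, 0.0479). Over all alternatives the adjusted p ran from 0.021 to 0.694 for *Tlr2*, from 0.0301 to 0.733 for *Cd14* and from 0.0479 to 0.969 for *Tlr1*.

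Ahr-KO against Ahrr-KO compares the knockout groups directly, without WT samples. Of the members, 3 surface or endosomal sensors were lower in the samples labelled Ahr-KO. *Cd14* ran from 6.59 to 7.53 (median 7.05) in Ahr-KO and from 6.88 to 8.25 (median 7.81) in Ahrr-KO, and fell by 0.66 (SE 0.14, adjusted p = 0.00713, 6 of 6 Ahr-KO samples below the Ahrr-KO mean). *Tlr4* measured 5.93, 6.18, 6.17, 6.17, 6.12 and 6.23 in Ahr-KO and 6.66, 6.69, 6.45, 6.94, 6.74 and 6.21 in Ahrr-KO, and fell by 0.48 (SE 0.13, adjusted p = 0.0261). On this scale, which is compressed near the floor, Ahr-KO samples were close together for *Tlr4*, and 5 of 6 lay below all Ahrr-KO samples. Counts of *Tlr4* were small, 16 to 32 in Ahr-KO and 37 to 79 in Ahrr-KO, and its normalized counts in Ahr-KO ran from 13.4 to 24.3. *Tlr7* measured 5.48, 5.70, 6.30, 6.53, 6.52 and 6.06 in Ahr-KO and 6.18, 6.69, 6.79, 6.61, 6.88 and 6.66 in Ahrr-KO, and fell by 0.54 (SE 0.17, adjusted p = 0.0462). The groups overlapped for *Tlr7* through Ahrr-KO F1, with 3 of 6 Ahr-KO samples below all Ahrr-KO samples. Its counts were small as well, 4 to 41 in Ahr-KO and 25 to 90 in Ahrr-KO. *Tlr1* (difference -0.53, adjusted p = 0.056), *Tlr2* (-0.37, 0.0843) and *Tlr9* (-0.39, 0.151) did not pass, nor did *Tlr13* (0.26, 0.417). Of 9 tested members 3 were called, all lower in Ahr-KO, against 14.9% of 11474 genes (1708) called and 8.04% (923) called lower. The split of all called genes, 785 higher and 923 lower, turned with median centring (981 and 827), quantile normalization (1029 and 819), a higher minimum mean (500 and 328) and no sex covariate (549 and 445). It also turned without Ahr-KO F1, F2, M1 or M3 or Ahrr-KO M3, and the number called lower ran from 379 to 1454 on leaving out 1 sample. The members' median difference was -0.39 against 0.00 over all tested genes. That median is the value of *Tlr9*, whose mean was 5.96 in Ahr-KO, under the minimum, and 6.34 in Ahrr-KO. *Tlr9* was thus tested only through the samples labelled Ahrr-KO, and the median is no support for a shift of the members.

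The call of *Cd14* between the knockout groups held without each single sample and without the 3 samples that stood apart (-0.65), and was lost with females only, with males only and with no sex covariate (adjusted p 0.00143 to 0.167 over all alternatives). *Tlr4* lost its call without Ahr-KO F1 (0.066), M1 (0.0552), M2 (0.0581) or M3 (0.0522), and also with no minimum mean (0.056), median centring (0.0528), quantile normalization (0.0652), all 18 samples in 1 fit (0.0709), females only (0.347) and males only (0.178), within a range of 0.00695 to 0.347. *Tlr7* kept its call without Ahr-KO F3 (0.0264) or Ahrr-KO F1 (0.028) and lost it without each of the other 10 samples (up to 0.109, without Ahr-KO M3) and by voom (0.0527). It was also lost with no minimum mean, centring, quantile normalization, log2 of normalized count plus 1, all 18 samples in 1 fit, no sex covariate, females only and males only, within a range of 0.0223 to 0.353. *Tlr1* passed without Ahrr-KO F1 (-0.65, adjusted p = 0.0139) and *Tlr2* without Ahrr-KO M1 (-0.44, adjusted p = 0.0499), within ranges of 0.0139 to 0.583 and 0.0369 to 0.651. By voom 2 of 9 members were called, *Cd14* and *Tlr4*. The 3 comparisons share samples pairwise, so their values stand side by side only: for *Cd14* 0.43 in Ahr-KO against WT, 1.09 in Ahrr-KO against WT and -0.66 between the knockout groups, and for *Tlr4* -0.05, 0.43 and -0.48. *Tlr5*, the flagellin receptor gene, lay under the minimum and was not tested. It had 0, 0, 10, 3, 6 and 0 counts in Ahr-KO F1 to M3 and 16 to 32 in Ahrr-KO, so these groups did not overlap. *Tlr3*, the other Toll-like receptor gene with enough signal, differed by 0.01, 0.06 and -0.05 in the same 3 comparisons and was not called.

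**Figure D3:**
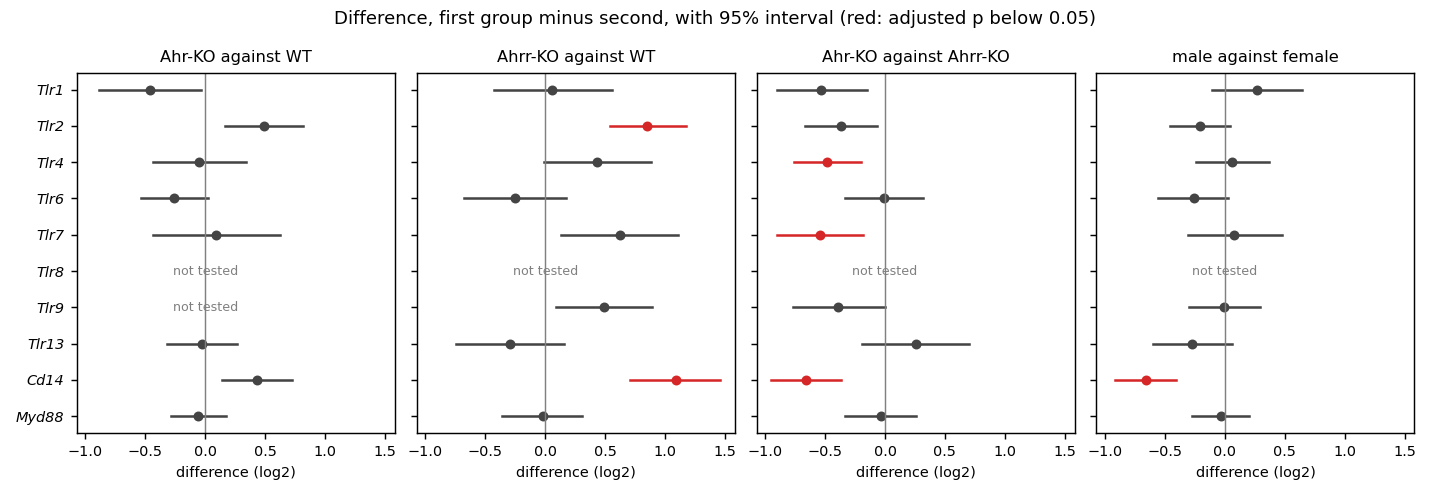
Difference on the log2 scale with its 95% interval for each member in the 3 comparisons of genotype and in males against females (red, adjusted p under 0.05). *Cd14* stands at 1.09 in Ahrr-KO against WT and at -0.66 both between the knockout groups and in males against females.

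Other genes of the pathway changed in the samples labelled Ahr-KO, where no member passed the test. Among co-receptors and chaperones (10 of 12 tested), *Unc93b1*, which carries endosomal receptors to their place, rose by 0.53 (adjusted p = 0.00646) and *Lgmn*, a protease that cleaves them, by 0.57 (adjusted p = 0.00394). *Cnpy3*, a chaperone that several receptors need to leave the endoplasmic reticulum, fell by 0.58 (adjusted p = 0.00191) and *Cd180*, a surface relative of TLR4, by 0.86 (adjusted p = 0.012). *Unc93b1* ran from 8.36 to 8.89 in WT and from 9.08 to 9.36 in Ahr-KO, *Lgmn* from 7.61 to 8.15 and from 8.24 to 8.59, and *Cnpy3* from 9.25 to 9.59 and from 8.65 to 9.23. For these genes the groups did not overlap, whereas *Cd180* did (7.62 to 8.33 in WT, 6.57 to 7.70 in Ahr-KO). The most abundant gene of the list per length was *Hsp90b1*. Among adaptors, kinases and ubiquitin ligases (20 of 21 tested, most abundant *Pik3ap1*), *Tirap*, the adaptor that links TLR2 and TLR4 to MyD88, rose by 0.57 (adjusted p = 0.00087). *Irak2*, a kinase of the complex that MyD88 builds, fell by 0.95 (adjusted p = 2.35e-05). *Tirap* ran from 8.46 to 8.78 in WT and from 9.06 to 9.35 in Ahr-KO, and *Irak2* from 9.82 to 10.57 and from 8.97 to 9.67, again without overlap. Of these lists limma thus called 2 higher and 2 lower of 10 and 1 higher and 1 lower of 20 (median differences 0.03 and 0.01), beside 585 higher and 418 lower of all 11346 tested genes (median -0.00). Without the 3 samples that stood apart all of these calls held except that of *Cd180*.

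Of the 6 genes called in these lists, 5 have an entry in the table used (all but *Unc93b1*). Of these, *Cnpy3*, *Irak2* and *Lgmn* hold the AHR core letters in the 250 bases before a start, and *Tirap* and *Cd180* do not. *Cnpy3* and *Irak2* are printed with the match in capitals, as examples of genes that fell. *Cnpy3* is chr17:46752215-46752464 (minus strand) and *Irak2* chr6:113638217-113638466 (plus strand), GRCm38.p6, RefSeq, with 1 match each.
Cnpy3: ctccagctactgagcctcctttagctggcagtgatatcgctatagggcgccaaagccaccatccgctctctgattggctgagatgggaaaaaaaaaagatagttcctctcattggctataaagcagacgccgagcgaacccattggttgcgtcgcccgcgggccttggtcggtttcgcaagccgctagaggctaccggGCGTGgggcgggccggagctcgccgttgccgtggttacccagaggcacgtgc
Irak2: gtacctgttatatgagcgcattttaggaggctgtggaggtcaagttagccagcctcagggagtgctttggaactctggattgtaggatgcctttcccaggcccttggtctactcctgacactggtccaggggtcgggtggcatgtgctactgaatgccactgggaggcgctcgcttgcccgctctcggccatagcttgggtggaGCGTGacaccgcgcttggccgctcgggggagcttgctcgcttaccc
*Lgmn*, which rose, holds 1 match as well, while *Tirap* (which rose) and *Cd180* (which fell) hold 0. The letters are thus found beside genes that moved either way, and such a match is common, in a promoter of 30.9% of 27025 genes.

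Of the response genes of the pathway (13 of 18 tested in Ahr-KO against WT, most abundant *Il1b*), 4 rose and 0 fell, while 9 had differences above 0 and 4 below. Over all 11346 tested genes 585 were called higher and 418 lower, and the median difference was 0.20 for the list against -0.00. *Il1b*, an inflammatory cytokine gene, ran from 14.11 to 15.33 in WT and from 15.60 to 16.76 in Ahr-KO and rose by 1.27 (SE 0.25, adjusted p = 0.00432). *Il6* rose by 1.46 (adjusted p = 0.0334), *Ccl3* by 0.83 (adjusted p = 0.0198) and *Cxcl1*, a chemokine gene, by 0.74 (adjusted p = 0.011). Without the 3 samples that stood apart, *Il1b* and *Cxcl1* were still called and *Il6* and *Ccl3* were not. Transcription factors downstream (9 tested, most abundant *Rel*) had 0 calls by limma, 2 at an unadjusted p under 0.05 and 0 by voom, and negative regulators (14 of 15 tested, most abundant *Tnfaip3*) 0, 3 and 0. Of 12 immediate early genes (most abundant *Dusp1*), a list kept as a sign of handling, *Atf3* fell by 1.42 (adjusted p = 3.4e-06), 2 passed at an unadjusted p under 0.05, and 10 lay below 0 and 2 above (median -0.20 against -0.00 over all genes). The part of handling in the result was not tested. The plot of pathway genes by sample shows these shifts.

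**Figure D4:**
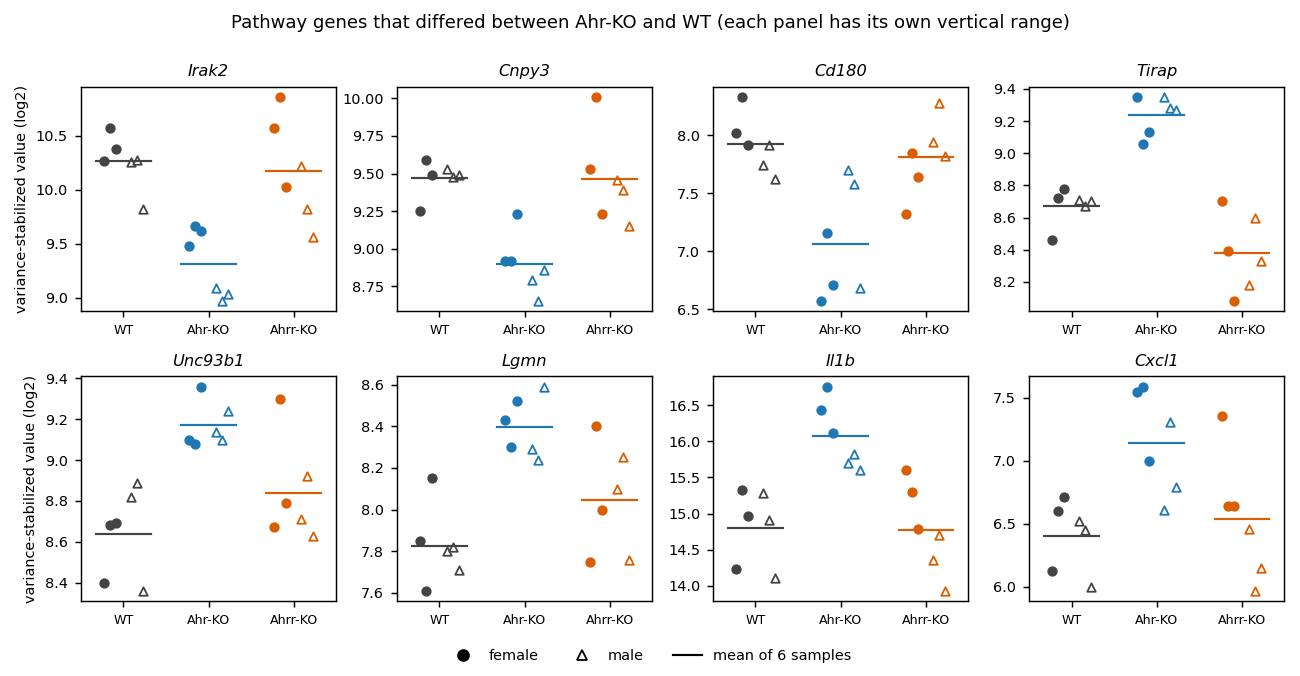
Deposited log2 values by group of 8 pathway genes called in Ahr-KO against WT (filled circles female, open triangles male, line the group mean). *Irak2* lies between 8.97 and 9.67 in Ahr-KO and between 9.82 and 10.57 in WT, and *Il1b* between 15.60 and 16.76 and between 14.11 and 15.33.

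In Ahrr-KO against WT, where *Cd14* and *Tlr2* rose, no gene of these lists was called. By limma the counts were 0 of 10 co-receptors and chaperones (1 at an unadjusted p under 0.05), 0 of 20 adaptors and kinases (1), 0 of 9 transcription factors (0), 0 of 14 negative regulators (1), 0 of 14 response genes (1) and 0 of 12 immediate early genes (1), and voom also called 0 in each. All 12 immediate early genes had differences above 0 (median 0.20 against 0.01 over all tested genes), or 9 of 12 (median 0.07) without the 3 samples that stood apart, and the part of handling in the rise of *Cd14* and *Tlr2* was not tested. Between the knockout groups, *Tirap* (0.86, adjusted p = 0.000512), *Nfkb1* (0.51, 0.0293), *Cd300lf* (0.69, 0.0324), *Il1b* (1.3, 0.00285), *Il6* (1.34, 0.024), *Cxcl1* (0.60, 0.0343) and *Ccl3* (1.0, 0.0133) were higher in Ahr-KO. *Irak2* (-0.87, 0.00176), *Cnpy3* (-0.57, 0.0141), *Cd180* (-0.74, 0.0168), *Relb* (-0.59, 0.022), *Irf8* (-0.82, 0.022) and *Atf3* (-1.88, 1.24e-06) were lower there. By list, 0 were called higher and 2 lower of 10 co-receptors and chaperones, and 1 and 1 of 20 adaptors and kinases. The same counts were 1 and 2 of 9 transcription factors, 1 and 0 of 14 negative regulators and 0 and 1 of 12 immediate early genes. Over all 11474 tested genes 14.9% were called. Of the 14 tested response genes 4 were thus called higher and 0 lower (8 at an unadjusted p under 0.05), but 7 lay above 0 and 7 below, with a median of -0.02 against 0.00 over all genes, of which 785 were called higher and 923 lower. By voom *Lcn2* was called lower beside the same 4. Of immediate early genes 11 of 12 lay below 0 (median -0.42), the direction of *Cd14*, *Tlr4* and *Tlr7* in this comparison, and the part of handling in it was not tested. All calls by limma named here for the knockout groups held without the 3 samples that stood apart.

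Sex was compared over all 18 samples with genotype as covariate, since *Tlr7*, *Tlr8* and *Tlr13* lie on the X chromosome. None of these X-linked members differed between sexes (*Tlr7* 0.08, adjusted p = 0.85; *Tlr13* -0.27, adjusted p = 0.361), and *Tlr8* was not tested. *Cd14* was the member that did. Its mean was 7.45 ± 0.58 (SD, n = 9) in females and 6.79 ± 0.48 in males, and it fell by 0.66 (SE 0.12, adjusted p = 0.00792), with 8 of 9 males below the female mean and 4 below every female. Within WT, the means were 6.80 ± 0.18 in females and 6.43 ± 0.34 in males (SD, n = 3), within Ahr-KO 7.45 ± 0.08 and 6.64 ± 0.07, and within Ahrr-KO 8.11 ± 0.18 and 7.30 ± 0.42, so females were higher in each group. Of 9 tested members 1 was called, against 3.06% of 11468 genes (351) called and 2.46% (282) called lower in males. The call held without each single sample, by voom and without the 3 samples that stood apart (-0.69, adjusted p = 0.0331), and was lost with no genotype covariate (0.151), the highest of a range that began at 0.000303. The members' median difference was -0.03 against 0.01 over all tested genes.

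Downstream of the receptors, 7 of 13 response genes, 3 of 9 transcription factors and 5 of 14 negative regulators fell in males, and none of them rose. Over all genes 282 were called lower and 69 higher. Of 13 tested response genes all 13 had differences below 0 (12 by voom and without the 3 samples that stood apart, *Nos2* being above), 12 at an unadjusted p under 0.05, with a median of -0.87 against 0.01 over all tested genes, and 7 were called. *Tnf* fell by 0.87 (adjusted p = 0.0129, means 7.45 in females and 6.58 in males), *Icam1* by 0.96 (adjusted p = 0.00798) and *Acod1* by 1.27 (adjusted p = 0.0361), beside *Il6*, *Cxcl2*, *Ccl3* and *Ccl4*. Of 9 transcription factors, *Nfkb2*, *Rel* and *Relb* fell (*Relb* by 0.82, adjusted p = 0.00858), and of 14 negative regulators, *Irak3*, *Nfkbia*, *Nfkbib*, *Nfkbie* and *Nfkbiz* fell (*Nfkbia* by 0.85, adjusted p = 0.00798). *Irak2* fell by 0.49 (adjusted p = 0.0278) and *Pik3ap1* by 0.61 (adjusted p = 0.0345), while *Cd36*, a scavenger receptor gene, rose by 0.68 (adjusted p = 0.0309). For transcription factors 7 of 9 differences lay below 0 and 2 above, and for negative regulators 11 of 14 and 3. Immediate early genes moved the same way, with 11 of 12 differences below 0 (median -0.58), 9 at an unadjusted p under 0.05 and 4 called (*Jun* -0.77, *Atf3* -0.75, *Ier3* -0.59 and *Hspa1b* -1.87), and the part of handling in the result was not tested. Without the 3 samples that stood apart, calls fell from 7 to 4 of 13 response genes (*Tnf*, *Il6*, *Ccl4* and *Icam1*), from 3 to 0 of 9 transcription factors (7 at an unadjusted p under 0.05), from 5 to 1 of 14 negative regulators (*Nfkbia*) and from 4 to 2 of 12 immediate early genes, *Irak2*, *Pik3ap1* and *Cd36* were not called, and the response genes' median was -0.75. Over all genes 351 were called, 91 without these 3 samples, 733 without WT F1 and 142 without Ahr-KO M1.

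**Figure D5:**
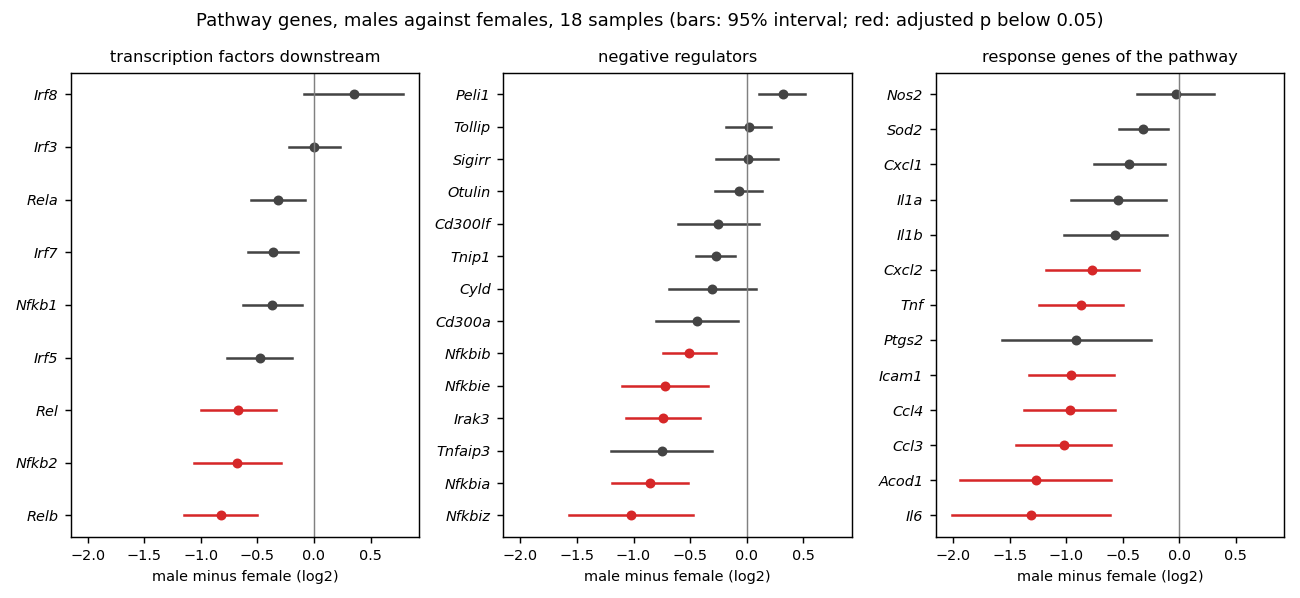
Difference of males minus females on the log2 scale (points) with its 95% interval (bars; red, adjusted p under 0.05) for transcription factors, negative regulators and response genes of the pathway. The 13 tested response genes lie below 0, *Nos2* closest to it, with a median of -0.87.

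Whether the differences between genotypes depend on sex was tested as an interaction. Of 8 tested members in Ahr-KO and WT, limma called 0, against 0 of 11346 genes (0%). At an unadjusted p under 0.05 there were 2 (*Tlr1*, difference between male and female effects 1.0, and *Tlr7*, 1.0), against 4.7% of all genes. In Ahrr-KO and WT 0 of 9 were called against 0 of 11546 genes (0%), with 2 at an unadjusted p under 0.05 (*Tlr1*, 1.10, and *Tlr6*, -0.99), against 4.71%. By voom 0 members were called in either. For *Cd14* the interaction was -0.44 in Ahr-KO and -0.43 in Ahrr-KO. Its difference from WT was 0.65 in females and 0.21 in males for Ahr-KO, and 1.3 and 0.87 for Ahrr-KO, where all 3 knockout samples of each sex lay above all WT samples of that sex. *Tlr2* differed by 0.20 in females and 0.77 in males for Ahr-KO, and by 0.80 and 0.91 for Ahrr-KO, again with all 3 of each sex above. For most response genes the differences of males from females lay further below 0 in the knockout groups than in WT, without passing the test. In Ahr-KO and WT 12 of 13 interactions were below 0 (median -0.65 against -0.01 over all genes), with 0 called by limma, 2 at an unadjusted p under 0.05 and 0 by voom. In Ahrr-KO and WT 13 of 14 were below 0 (median -0.64 against -0.02), with 0 called by limma, 2 at an unadjusted p under 0.05 and 0 by voom. Immediate early genes had 10 of 12 interactions below 0 in Ahr-KO and WT (median -0.53, 3 at an unadjusted p under 0.05) and 7 of 12 in Ahrr-KO and WT (-0.33, 1), with 0 called by limma or voom, and the part of handling was not tested.

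Markers of other cells that a sort can carry along were measured beside the members, since macrophages and neutrophils are known to express *Cd14* and *Tlr2*. The gate kept MHC-II-negative cells with SiglecF and high side scatter. The summed normalized counts of 12 macrophage and monocyte markers (most abundant *Lyz2*) ran from 1415 to 2269 in WT (median 1665), from 1862 to 4172 in Ahr-KO (median 2927) and from 1317 to 9206 in Ahrr-KO (median 5174). In Ahrr-KO F1 to M3 the sums were 1317, 9206, 7832, 5948, 4401 and 4196. In Ahrr-KO against WT, 10 of 10 tested macrophage markers had differences above 0 (median 0.63), 5 at an unadjusted p under 0.05, and 0 were called by limma or voom. The median macrophage sum was thus lowest in WT and highest in Ahrr-KO, the order of *Cd14* and *Tlr2* over the groups. The part of macrophages in the result was not tested. Ahrr-KO F1 had the lowest macrophage sum of the 18 samples and measured 7.26 for *Tlr2*, the highest value of that gene, and 7.90 for *Cd14*. Its *Tlr7* value (6.18) was the lowest of its group.

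Neutrophil markers (10 genes, most abundant *Retnlg*) summed to 24246 to 49009 in WT (median 36170), 56088 to 113776 in Ahr-KO (median 84323) and 24445 to 45703 in Ahrr-KO (median 35615), and *Elane* had 0 counts in all WT and Ahr-KO samples. *S100a8* and *S100a9*, both on this list, rose in Ahrr-KO, while *Retnlg* (1.21) and *Cxcr2* (0.65) rose in Ahr-KO. Most of the sum is *Retnlg*, whose mean normalized counts were 35077, 81841 and 33082 in WT, Ahr-KO and Ahrr-KO. Over the tested genes of the list, 5 of 6 had differences above 0 in Ahr-KO against WT (median 0.37, 2 called) and 5 of 6 in Ahrr-KO against WT (median 0.44, 2 called, 3 at an unadjusted p under 0.05). Most tested neutrophil markers thus lay above 0 in both comparisons, as *Cd14* and *Tlr2* did, but different genes were called in each. The median sum was highest in Ahr-KO and not raised in Ahrr-KO, unlike *Cd14* and *Tlr2*. The part of neutrophils in the result was not tested. In Ahr-KO F3 *S100a9* measured 10.15, against at most 8.23 in the other Ahr-KO samples. Epithelial markers (9 genes, most abundant *Fabp2*) had median sums of 5798, 5285 and 13592 in WT, Ahr-KO and Ahrr-KO, and those of B and plasma cells (8, *Jchain*) 575, 288 and 3912. Dendritic cell markers (10, *Cd74*) had 1872, 1419 and 2938, fibroblast and endothelial markers (8, *Pecam1*) 3369, 2145 and 3248, and mast cell markers (6, *Kit*) 83.9, 107 and 187, with *Tpsb2* at 0 in all Ahr-KO samples. Eosinophil markers (12, *Alox15*) had median sums of 36316, 45420 and 33142. Gene by gene, the differences in Ahrr-KO against WT were above 0 for 9 of 9 epithelial markers (median 0.58, 2 at an unadjusted p under 0.05), 6 of 7 fibroblast and endothelial markers (0.73, 4) and 3 of 3 markers of B and plasma cells (0.44, 2). They were above 0 for 3 of 6 dendritic cell markers (0.23, 1) and 1 of 1 mast cell marker (0.20, 0), against a median of 0.01 over all genes. In these 5 lists limma and voom called 0. Most of these markers lay in the direction of *Cd14* and *Tlr2*, while 6 of 7 eosinophil markers lay below 0 (-0.29, 1), and the part of either in the result was not tested.

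Over the 8 lists of other cell types, 3 of 39 tested markers rose in Ahr-KO against WT (*Csf1r*, *Cxcr2* and *Retnlg*) and 2 fell (*Ccr9* and *Pecam1*), and 2 of 44 rose in Ahrr-KO against WT (*S100a8* and *S100a9*), beside 585 higher and 418 lower of 11346 genes and 9 higher of 11546. Beside the rise of *Il1b*, *Il6*, *Ccl3* and *Cxcl1* and the other pathway calls in Ahr-KO against WT, macrophage markers had 6 of 8 differences above 0 (median 0.12, 3 at an unadjusted p under 0.05) and neutrophil markers 5 of 6 (0.37, 2). Epithelial markers had 7 of 9 below 0 (-0.51, 3), fibroblast and endothelial markers 3 of 3 (-0.22, 1), dendritic cell markers 4 of 7 (-0.15, 2) and those of B and plasma cells 2 of 3 (-0.01, 1), and the 1 mast cell marker tested lay above (0.41, 0). The part of these cells in the pathway calls was not tested. Between the knockout groups, 2 of 45 were higher in Ahr-KO (*Itgae* and *Retnlg*) and 11 lower, among them *C1qb*, *S100a8*, *S100a9*, *Jchain*, 5 epithelial markers, *Col1a2* and *Cdh5*, beside 785 higher and 923 lower of 11474 genes. The calls of *C1qb* and *Col1a2* were lost by voom. Differences were below 0 for 8 of 10 macrophage markers (median -0.57, 6 at an unadjusted p under 0.05), 9 of 9 epithelial markers (-1.02, 8) and 7 of 7 fibroblast and endothelial markers (-0.88, 6). The same held for 5 of 7 dendritic cell markers (-0.11, 3), 4 of 6 neutrophil markers (-0.17, 3) and 3 of 3 markers of B and plasma cells (-0.20, 1), against a median of 0.00 over all genes, while the 1 mast cell marker lay above 0 (0.21, 0). Most markers of other cells thus lay in the direction of *Cd14*, *Tlr4* and *Tlr7*. In the same comparison the eosinophil markers *Siglecf* (0.72), *Il5ra* (0.75), *Prg2* (2.07) and *Alox15* (0.79) were higher in Ahr-KO and *Clec4a4* lower (-3.58), with 6 of 7 above 0 (median 0.72). These shifts lie beside the lower *Cd14*, *Tlr4* and *Tlr7* of that comparison, and their part in it was not tested.

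In males against females, the markers of other cells *H2-Aa* (1.48) and *H2-Ab1* (1.34) were higher and *Ltf* (-0.84) and *Kit* (-0.94) lower, of 44 tested, beside 69 higher and 282 lower of 11468 genes. Neutrophil markers had 5 of 6 differences below 0 (median -0.54, 2 at an unadjusted p under 0.05), the direction of *Cd14* and the response genes, or 2 of 4 (median -0.05) without the 3 samples that stood apart. Epithelial markers had 9 of 9 above 0 (0.50, 2), macrophage markers 8 of 9 (0.43, 3), dendritic cell markers 5 of 7 (0.02, 4), fibroblast and endothelial markers 6 of 7 (0.11, 0) and those of B and plasma cells 2 of 3 (0.07, 0), against a median of 0.01 over all genes. Eosinophil markers had 6 of 7 below 0 (-0.10, 1), or 4 of 7 (-0.04) without the 3 samples that stood apart. The part of these cells in the sex difference of *Cd14* and the response genes was not tested. In the interactions limma called 0 of 39 and 0 of 44 markers, but several lists lay to 1 side. In Ahr-KO and WT, macrophage markers had 7 of 8 interactions above 0 (median 0.75, 3 at an unadjusted p under 0.05), dendritic cell markers 7 of 7 (0.64, 4) and epithelial markers 8 of 9 (0.53, 0), while eosinophil markers had 7 of 7 below 0 (-0.29, 1) and neutrophil markers 5 of 6 (-0.46, 0). In Ahrr-KO and WT, epithelial markers had 9 of 9 above 0 (1.11, 0), macrophage markers 8 of 10 (0.40, 0), dendritic cell markers 5 of 6 (0.47, 0) and fibroblast and endothelial markers 6 of 7 (0.75, 0), while eosinophil markers had 6 of 7 below 0 (-0.44, 0) and neutrophil markers 4 of 6 (-0.27, 0). The lists below 0 lay in the direction of the response genes. By voom 0 were called in each of these lists, and their part in the interactions of the response genes was not tested.

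Genes most like each called member over the 18 samples were found by Pearson's r among 11467 genes, as a description. *Tlr2* ran closest with *S100a9* (r = 0.79, Spearman's rho = 0.73, r = 0.77 without the 2 samples farthest from the median of *Tlr2*), *Hp* (0.79, 0.73, 0.73) and *Csf3r* (0.78, 0.84, 0.81). All of these are among the 9 genes called in Ahrr-KO against WT. *Cd14* ran closest with *Traf1* (0.86, 0.88, 0.76), *Tnip1* (0.86, 0.86, 0.76), itself on the list of negative regulators, and *Cebpd* (0.81, 0.84, 0.80). *Tlr7* did so with *Mef2c* (0.84, 0.86, 0.86), *Nrp1* (0.84, 0.88, 0.84) and *Stab1* (0.82, 0.92, 0.86). *Tlr4* ran closest with *Anxa1* (0.71, 0.75, 0.64), *Rbbp4* (0.71, 0.77, 0.70) and *Gm20594* (0.70, 0.66, 0.47), the last weaker without the 2 samples left out. Each called member had its own neighbours, with no gene shared between these lists. Among the members themselves, *Tlr7* and *Tlr8* had r = 0.70 (rho = 0.72), *Tlr2* and *Cd14* 0.69 (0.68), *Tlr13* and *Myd88* 0.65 (0.52) and *Tlr4* and *Tlr7* 0.63 (0.65). These values mix differences between groups with differences within them.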

How the data were processed

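Gene counts were made by the authors from single-end reads of at least 75 bases aligned to GRCm38 (Ensembl release 86), with STAR 2.5.2 and RSEM 1.3.0 named in the processing notes. The deposited values are log2, made by the authors with the variance-stabilizing transformation of DESeq2 after scaling each sample by its size factor, and cover 22708 genes, of which 22685 IDs matched a RefSeq gene. Turning the transformation back gave whole counts for 100% of values (tolerance 0.0001). Groups were compared with limma 3.58.1 (R 4.3.3) with a trend and sex as covariate on the 12 samples compared, or genotype as covariate on all 18 for sex. Genes needed a mean at least 1 above the lowest value, and p-values were adjusted by Benjamini-Hochberg over all genes tested and called below 0.05. Python 3.11.15 made the tables (pandas 2.3.3, numpy 2.4.6, scipy 1.17.1) and drew the figures (matplotlib 3.10.9). Levels per kilobase used GENCODE exons.

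Named genes were all members, the other Toll-like receptor genes, the AHR list, the called genes of each pathway list up to the 4 largest, the most abundant gene of each list and the 3 genes most like each called member; names beyond these were added after their values were seen. The members and lists were chosen with earlier results of these data known. Alternatives were no or a higher minimum mean, a robust trend or none, weights per sample, median centring, a replicate block, quantile normalization, log2 of normalized count plus 1, voom with TMM on the recovered counts, all 18 samples in 1 fit, no covariate and leaving out each sample. Females only, males only and leaving out the sample of each group with the highest *Camp* value were chosen after seeing the data. The summed level of 1 of the 8 marker lists of other cell types is not reported here.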

Additional observations from a re-analysis of the deposited data

Results flagged for a closer look

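In Ahrr-KO against WT, 3 members moved in opposite directions in the sexes, every Ahrr-KO female lying on one side of the WT female mean and every Ahrr-KO male on the other side of the WT male mean. The difference between the sexes was tested with limma as an interaction, and none passed (adjusted p = 0.727 for each). For *Tlr1* the interaction was 1.10, from a difference of -0.49 in females and 0.61 in males. *Tlr6*, its neighbour on the chromosome, had an interaction of -0.99, from 0.24 in females and -0.75 in males. For *Myd88* it was -0.58, from 0.26 and -0.31. Of the 30 sets of 6 samples (10 members in 3 groups), 0 held a sample far from the others, where chance gives about 1 in 20.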

How the results depend on the processing

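In Ahr-KO against WT 0 members were called, and 1 (*Tlr2*) was with quantile normalization, with sample weights, with males only and without the highest *Camp* sample of each group (0 to 2 on leaving out 1 sample). In Ahrr-KO against WT 2 were called, and 0 with no minimum mean, with a minimum mean of 3 above the lowest value (which leaves 3 members tested), with median centring, quantile normalization, log2 of normalized count plus 1, voom, no sex covariate, females only, males only and without the highest *Camp* samples (0 to 1 on leaving out 1 sample). Between the knockout groups 3 were called, 1 (*Cd14*) with no minimum mean, centring, quantile normalization and all 18 samples in 1 fit, 1 (*Tlr4*) with no sex covariate, 0 with the higher minimum, with females only and with males only, and 5 with sample weights (1 to 4 on leaving out 1 sample). In males against females 1 was called, 0 with the higher minimum (*Cd14* not tested) and 0 with no genotype covariate (1 to 1 on leaving out 1 sample). With the replicate block, members called were 0, 0, 4 and 1 in these comparisons, and those over all genes were 918, 4, 1946 and 336. Interactions had 0 members called throughout. Why these counts differ was not tested, except that fewer samples or fewer tested genes enter some alternatives. No called value changed sign. Counts over all genes ran from 241 to 1103 around 1003 in Ahr-KO against WT (623 to 1124 on leaving out 1 sample), where more were higher than lower except with females only (112 and 129) and males only (145 and 161), from 2 to 18 around 9 in Ahrr-KO against WT (4 to 25), from 109 to 2390 around 1708 between the knockout groups (818 to 2574) and from 91 to 1310 around 351 between sexes (142 to 733). The median of the Ahrr-KO interaction over all genes was -0.02. It moved to -0.11 with centring, to -0.18 with the higher minimum and to 0.12 with no minimum mean. Equal sample numbers do not pair samples: over 18 pairs r ran from -0.59 to 0.47, and 11 of 36 tries found the sample of the same number most alike. *Tlr2* had counts of 3 to 19 in WT, the group of lowest depth, and the part of depth in its result was not tested.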
